A study of Homo sapiens with 6 samples.

Results

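Messenger RNA levels of 10 genes of glutathione synthesis, recycling and use were examined in CAL27 cells, an established human line of tongue squamous cell carcinoma. The genes were taken by symbol from the deposited tables: SLC7A11, GCLC, GCLM, GSS, GSR, GPX1, GPX2, GPX4, GPX8 and GSTP1. All 10 were found among the 32353 genes of the count table, and all 10 passed the filter on low counts that left 17887 genes for testing. Of the 6 libraries of total RNA, 3 were controls that received a control plasmid and 3 were made to overexpress RBM24, an RNA-binding protein best known for its part in muscle splicing. The labels name no other agent, time or clone and do not say that the libraries came from separate cultures. The p-values therefore measure only the spread between these libraries, which may be technical.

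Glutathione is the main small thiol of the cell, built in the cytosol from glutamate, cysteine and glycine. Cystine enters through the exchanger of SLC7A11 and SLC3A2, glutamate-cysteine ligase joins the first pair of amino acids, and glutathione synthetase adds glycine. Glutathione peroxidases spend glutathione to reduce peroxides, glutathione reductase restores it with NADPH, and glutathione transferases attach it to electrophiles. Several of these genes are textbook targets of the transcription factor NRF2, which binds antioxidant response elements, and squamous carcinomas often carry an active NRF2 programme.

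GPX2, the gastrointestinal glutathione peroxidase, was the 1 gene of the 10 that rose with RBM24, and none fell. Across all tested genes 0.855% were called higher and 0.682% lower (1.54% in either direction) at the same threshold, an adjusted p under 0.05 by edgeR. Of the 10 genes 6 had a positive log2 fold change, as did 48.6% of all tested genes. The other 9 genes, among them all those of synthesis and recycling, had log2 fold changes between -0.08 and 0.14, the sign being positive where RBM24 libraries were higher. GPX2 was also the lowest of the 10 in level, and its call was lost when any of 4 libraries was left out. The median log2 fold change was 0.02 over the 10 genes and 0.00 over all tested genes (-0.0037).

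The 4 peroxidases differ in their catalytic residue, which the nucleotide sequence shows. GPX1, GPX2 and GPX4 are selenoproteins: a TGA codon inside the reading frame is read as selenocysteine instead of stop. GENCODE 29 (GRCh38) annotates that codon in these 3 genes and in none of the other 7, GPX8 included. The codon is shown in capitals with 18 coding bases on each side, 5′ to 3′ on the gene's strand, because it sets the 3 apart from GPX8 while their RNA levels did not follow that division.
GPX1, codon at chromosome 3, 49358132 to 49358134, minus strand: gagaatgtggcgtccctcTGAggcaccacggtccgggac
GPX2, codon at chromosome 14, 64942607 to 64942609, minus strand: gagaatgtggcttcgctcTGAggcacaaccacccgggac
GPX4, codon at chromosome 19, 1105403 to 1105405, plus strand: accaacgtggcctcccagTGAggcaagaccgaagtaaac

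Antioxidant response elements were looked for in the promoters, since GPX2 and GCLM are known NRF2 targets. The motif searched was the core TGACNNNGC on both strands, in windows of 300 bases that run from 250 before to 50 after the RefSeq start (GRCh38.p14). Windows were at hand for 7 of the 10 genes (9 windows, as GPX4 has several starts). The core was found in GPX2, GCLM and GSTP1 and not in GCLC, GPX1, GPX4 or GPX8, and 13.3% of the 35116 windows in the table hold it. These matches are shown in capitals with 15 bases on each side, on the gene's strand, to set the gene that rose beside the others that carry the core.
GPX2, match at chromosome 14, 64942859 to 64942867: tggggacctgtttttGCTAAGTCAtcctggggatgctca
GCLM, match at chromosome 1, 93909456 to 93909464: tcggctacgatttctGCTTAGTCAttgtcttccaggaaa
GSTP1, match at chromosome 11, 67583746 to 67583754: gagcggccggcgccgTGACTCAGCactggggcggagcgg
The GPX2 match begins 122 bases before the RefSeq start and reads TGACTTAGC on the opposite strand, and it lies within an exon of 1 of 5 GENCODE 29 transcripts of the gene. In GCLM the match begins 34 bases before the start and reads TGACTAAGC, also on the opposite strand. In GSTP1 it begins 66 bases before the start, on the gene's own strand, lies within exons of 2 of 9 GENCODE transcripts, and overlaps an AP-1 site (TGANTCA, present in 7.71% of windows), as TGACTCAGC contains both. Among the other NRF2 targets described later, the windows of NQO1, AKR1C1, AKR1C2 and AKR1C3, which rose, and of OSGIN1 hold 0 matches. No window was at hand for HMOX1, which also rose, or for AKR1B10. A match is a run of letters and not a measured binding site, and its absence covers only this window. The stretch before the GPX2 start is given whole, since GPX2 is the gene that rose.
GPX2, 250 bases upstream, chr14:64942746-64942995, minus strand: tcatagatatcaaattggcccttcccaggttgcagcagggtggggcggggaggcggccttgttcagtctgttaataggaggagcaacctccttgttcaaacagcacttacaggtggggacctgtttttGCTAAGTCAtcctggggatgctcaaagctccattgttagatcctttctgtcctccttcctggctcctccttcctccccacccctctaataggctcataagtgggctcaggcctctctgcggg

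The libraries held 53558773 to 68804210 gene counts. RBM24 itself had a CPM (counts scaled to a common library size) of 2.93 ± 0.576 with the control plasmid and of 120 ± 8.89 with overexpression (SD, n = 3 each), higher in the libraries so labelled. Control library 1 stood apart on the first principal component, at -33.4 where the other 5 libraries lay between -4.95 and 15.4. Small noncoding and ribosomal RNA genes took 0.0421% of its counts, and 0.00475% to 0.00674% in the other 5. Keratinocyte and epithelial markers (KRT5, KRT14, KRT17, TP63, CDH1, EPCAM) summed to 319 to 325 FPKM in the control and 345 to 353 FPKM in the RBM24 libraries. Of that list KRT14 alone lay at 1.45 to 2.01 FPKM. The fibroblast (5 of 5 in the table), immune (3 of 4) and endothelial (3 of 3) markers summed to at most 1.96, 0.66 and 1.77 FPKM in any library. PTPRC, CD3E and DCN were at 0.01 FPKM or less in each library, but COL1A1 reached 1.23, CD68 0.65 and CDH5 1.71 FPKM. The part of these in the results was not tested. Reads of the 10 genes made up 0.187% to 0.206% of all counts.

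Per unit of transcript length, the 10 genes spanned a 406-fold range of level. FPKM, the authors' fragment counts per gene length and library size, ran from 561 to 655 for GSTP1, the pi-class transferase that is abundant in squamous epithelium. GPX1, the cytosolic peroxidase, lay at 126 to 151 FPKM and GPX4, which reduces lipid hydroperoxides in membranes and guards against ferroptosis, at 113 to 130 FPKM. The reductase GSR lay at 20.8 to 22.8 FPKM and the synthetase GSS at 18.2 to 19.5 FPKM. The ligase subunits came next, GCLM at 6.74 to 9.0 FPKM and GCLC at 6.07 to 7.07 FPKM. GPX8, a peroxidase of the endoplasmic reticulum, followed at 3.81 to 4.08 FPKM, SLC7A11 at 2.41 to 2.94 FPKM, and GPX2 at 0.98 to 2.08 FPKM. Of the 9 neighbouring pairs in this order, the library ranges overlapped in 2, GPX1 with GPX4 and GCLM with GCLC, and lay apart in the other 7. Among 13789 tested protein-coding genes, GSTP1 ranked 43rd by mean FPKM, GPX1 249th and GPX4 288th, whereas SLC7A11 ranked 8030th and GPX2 9491st.

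**Figure D1:**
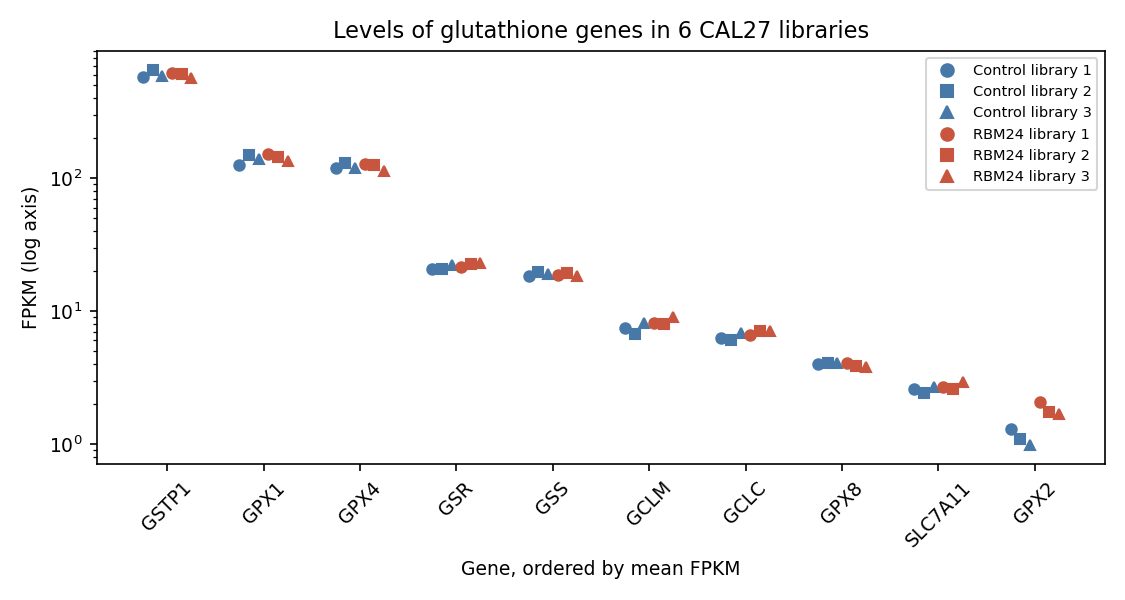
FPKM (log axis) of the 10 genes in each of the 3 control (blue) and 3 RBM24 (red) libraries, ordered by mean. GSTP1 sits between 561 and 655, GPX2 between 0.98 and 2.08, and only GPX2 has its 3 RBM24 points all above its 3 control points.

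GPX2 (ENSG00000176153.12, chromosome 14, 64939152 to 64942905, minus strand) had 119, 96 and 99 counts in controls 1 to 3, and 232, 150 and 164 counts in RBM24 libraries 1 to 3. Scaled to library size, these were 2.16, 1.79 and 1.57 CPM in the control and 3.36, 2.77 and 2.66 CPM in the RBM24 libraries. All RBM24 values were above all control values, with RBM24 library 1 the highest of all and control library 1 the highest of its group. Libraries of the groups did not overlap in 18.1% of all tested genes (9.53% higher, 8.62% lower), and in 1 of these 10. The group means were 1.84 ± 0.299 and 2.93 ± 0.374 CPM (SD, n = 3 each), a 1.60-fold rise, or 0.68 on the log2 scale (SE 0.145, 95% interval 0.37 to 0.99; edgeR quasi-likelihood test, Benjamini-Hochberg adjusted p = 0.0242). In these bulk samples, more RNA per cell and more cells expressing the gene cannot be told apart. In the authors' FPKM values GPX2 stood at 1.12 ± 0.164 and 1.83 ± 0.221 (SD, n = 3 each).

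GPX2 had few reads, and its call did not hold in every setting. The coefficient of variation of its CPM was 16.2% in the control and 12.8% in the RBM24 libraries, where counting error alone gives 9.82% and 7.54%. Without control library 2 the adjusted p was 0.0603, without control library 3 it was 0.0858, without RBM24 library 1 it was 0.167 and without RBM24 library 2 it was 0.0754, all by edgeR. Without control library 1, the library that stood apart, the log2 fold change was 0.81 and the call held (adjusted p = 0.0173). On the FPKM values limma did not call it (adjusted p = 0.101 on log2(FPKM + 1) and 0.0915 on log2(FPKM + 0.1)), whereas DESeq2 did (adjusted p = 0.00853). GPX2 lies within the span of CHURC1 and CHURC1-FNTB on the opposite strand. CHURC1 had a mean log2 CPM of 6.31 against 1.28 for GPX2, and no source used here says whether the counting used strand, so reads of CHURC1 could enter the GPX2 count. CHURC1 itself had a log2 fold change of -0.08 (edgeR adjusted p = 0.565) and CHURC1-FNTB of -0.05 (adjusted p = 0.855).

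**Figure D2:**
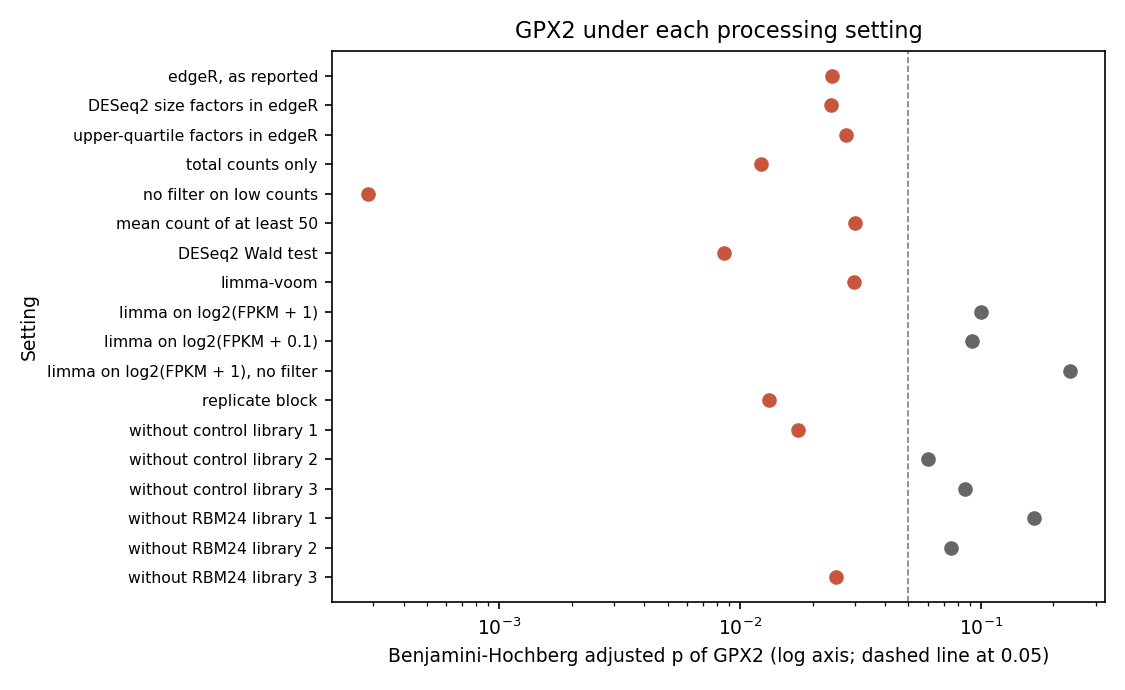
Adjusted p of GPX2 (log axis, dashed line at 0.05) as reported and under 17 alternative settings. It passes in 10 of the 17, and the 7 that miss are the 3 fits on FPKM and the removal of control library 2 or 3 or RBM24 library 1 or 2.

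The other 3 peroxidases did not pass the test. GPX1 (chromosome 3, 49357171 to 49358600) stood at 165, 195 and 174 CPM in the control libraries, and with RBM24 at 191, 181 and 168 CPM. The groups overlapped fully, and the log2 fold change was 0.02 (95% interval -0.12 to 0.15; edgeR adjusted p = 0.951). GPX4 (chromosome 19, 1103926 to 1106791) stood at 269, 290 and 258 CPM in the control and at 277, 271 and 243 CPM in the RBM24 libraries. Its highest value was in control library 2 and its lowest in RBM24 library 3, with a log2 fold change of -0.04 (interval -0.17 to 0.08; adjusted p = 0.817). GPX8 (chromosome 5, 55160118 to 55167071) stood at 18.1, 18.1 and 17.6 CPM in the control and at 17.8, 16.6 and 16.4 CPM in the RBM24 libraries. Here RBM24 library 1 lay within the control range and the other RBM24 libraries below it, with a log2 fold change of -0.08 (interval -0.22 to 0.06; adjusted p = 0.645). The interval of GPX2 began above the upper bound of each of these 3, but the difference between the genes was not tested.

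Since GPX1 and GPX4 were so much more abundant, GPX2 remained a small part of the peroxidase RNA. Of the summed FPKM of GPX1, GPX2, GPX4 and GPX8, GPX2 made up 0.423% ± 0.0831 in the control and 0.674% ± 0.0524 in the RBM24 libraries (SD, n = 3 each). GPX1 made up 51.8% ± 1.37 and 52.8% ± 0.397, and GPX4 46.2% ± 1.23 and 45.1% ± 0.478, in the same order. The sum itself was 267 ± 17.6 and 271 ± 16.5 FPKM (SD, n = 3 each), a difference smaller than the spread within either group.

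Cystine uptake and the rate-limiting ligase showed small positive values that did not pass. SLC7A11 (chromosome 4, 138164097 to 138242349), the light chain of the cystine and glutamate exchanger, stood at 27.8, 25.6 and 27.3 CPM in the control and 27.9, 26.7 and 30.2 CPM in the RBM24 libraries. RBM24 library 2 lay inside the control range, and the log2 fold change was 0.07 (95% interval -0.06 to 0.21; edgeR adjusted p = 0.693). GCLC (chromosome 6, 53497341 to 53616970), the catalytic subunit of the ligase, stood at 60.5, 57.6 and 62.3 CPM in the control and 60.8, 64.6 and 64.8 CPM in the RBM24 libraries. RBM24 library 1 lay inside the control range, with a log2 fold change of 0.08 (interval -0.03 to 0.19; adjusted p = 0.582). GCLM (chromosome 1, 93885205 to 93909456), the modifier subunit that raises the ligase's affinity for glutamate, stood at 45.3, 40.3 and 47.0 CPM in the control and 47.8, 46.4 and 52.0 CPM in the RBM24 libraries. Here RBM24 library 2 overlapped the controls. The log2 fold change of GCLM was 0.14 (interval 0.0033 to 0.28), with an unadjusted p of 0.0453 and an adjusted p of 0.371, and 13.0% of all tested genes had an unadjusted p under 0.05.

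The proportions of the 2 partner pairs were compared per length. The ratio of GCLC to GCLM in FPKM was 0.840, 0.901 and 0.835 in the controls, and with RBM24 it was 0.800, 0.878 and 0.786. These ranges overlapped, and the difference of -0.07 in the log2 ratio had p = 0.40 in an exact two-sided permutation test, whose smallest possible p with 3 against 3 is 0.10. The ratio of SLC7A11 to SLC3A2, the heavy chain that carries several transporters, was 0.0377, 0.0306 and 0.0337 in the control and 0.0348, 0.0330 and 0.0405 in the RBM24 libraries. The difference in the log2 ratio was 0.09 (exact permutation p = 0.60). SLC3A2 had a log2 fold change of -0.02 (edgeR adjusted p = 0.926).

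The last step of synthesis, the reductase and the transferase did not pass either. GSS (chromosome 20, 34928433 to 34956027), which adds glycine, stood at 126, 133 and 125 CPM in the control and 125, 127 and 119 CPM in the RBM24 libraries, a log2 fold change of -0.05 (95% interval -0.15 to 0.06; edgeR adjusted p = 0.744). GSR (chromosome 8, 30678061 to 30727999), which reduces glutathione disulfide, stood at 83.3, 82.4 and 85.8 CPM in the control and 83.0, 86.5 and 87.5 CPM in the RBM24 libraries, a log2 fold change of 0.03 (interval -0.07 to 0.13; adjusted p = 0.853). GSTP1 (chromosome 11, 67583595 to 67586656) stood at 1127, 1274 and 1099 CPM in the control and 1168, 1136 and 1053 CPM in the RBM24 libraries, a log2 fold change of -0.06 (interval -0.20 to 0.08; adjusted p = 0.761). In all 3 genes the groups overlapped. Over the 9 genes that did not pass, the outermost bounds of the 95% intervals were 14.0% below and 21.2% above the control level, and 8 of the 9 intervals included no change, the exception being GCLM. Without control library 2 the log2 fold change of GCLM was 0.08 (SE 0.0625), and without RBM24 library 3 it was 0.09 (SE 0.0707). These genes had 900 to 80625 counts per library and coefficients of variation of 1.59% to 8.54% within groups.

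**Figure D3:**
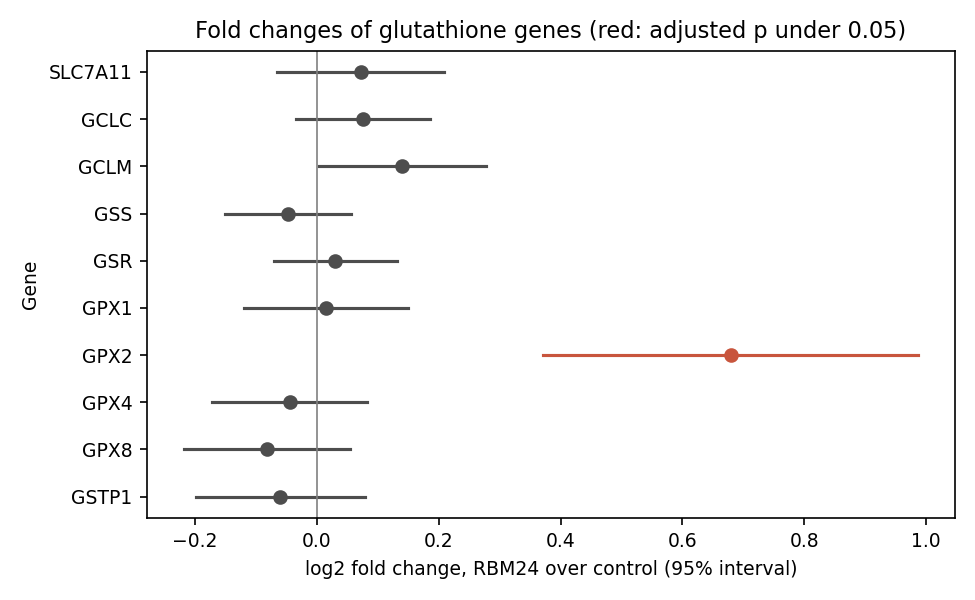
Log2 fold changes of the 10 genes, RBM24 over control, with 95% intervals from the edgeR fit. GPX2 (red) stands at 0.68 with an interval of 0.37 to 0.99, and the other 9 lie between -0.08 and 0.14.

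Among the genes that were not called, 8 of the 9 had their extremes in the same 2 libraries. The share of all tested genes with extremes in these 2 libraries was not counted, so the pattern may not be particular to these genes. SLC7A11, GCLC, GCLM and GSR each had their lowest CPM in control library 2 and their highest in RBM24 library 3. GSS, GPX4, GPX8 and GSTP1 had their highest in control library 2 and their lowest in RBM24 library 3. For GPX8 the margin of control library 2 over control library 1 was narrow (18.09 against 18.07 CPM). The log2 fold changes of the first 4 genes were all positive and those of the other 4 all negative. Grouping by these extremes largely sets that sign, so it is no separate observation. GPX1 belonged to neither set, with its highest CPM in control library 2 and its lowest in control library 1. The closest pair was GPX4 and GSTP1, whose log2 CPM, each centred on its mean, differed by a root mean square of 0.03 (0.0252) over the 6 libraries, followed by GCLC and GSR at 0.03 (0.0304). Libraries also differed by gene length: in control library 2 the median centred log2 CPM was 0.0450 for the shortest 2684 protein-coding genes and -0.0384 for the longest 2684, and in RBM24 library 3 it was -0.0358 and 0.0315. In control library 3 it was -0.0432 and 0.0297. There the centred log2 CPM was -0.0532 for GSTP1, -0.0528 for GPX4, 0.0128 for GCLC and -0.0107 for SLC7A11. That library held the extreme of none of these 8 genes. By the length that the counts and FPKM imply, GPX1, GPX2, GSTP1 and GPX4 (1275 to 2182 bases) belong to the shortest set, which ends at 3716 bases, and GCLC and SLC7A11 to the longest, which begins at 8670 bases. GSS (6661 bases), GCLM (5886), GPX8 (4375) and GSR (3895) lie between these sets. GSS and GPX8 had their extremes as in GPX4, and GCLM and GSR as in GCLC. The part of length in the pattern was not tested.

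**Figure D4:**
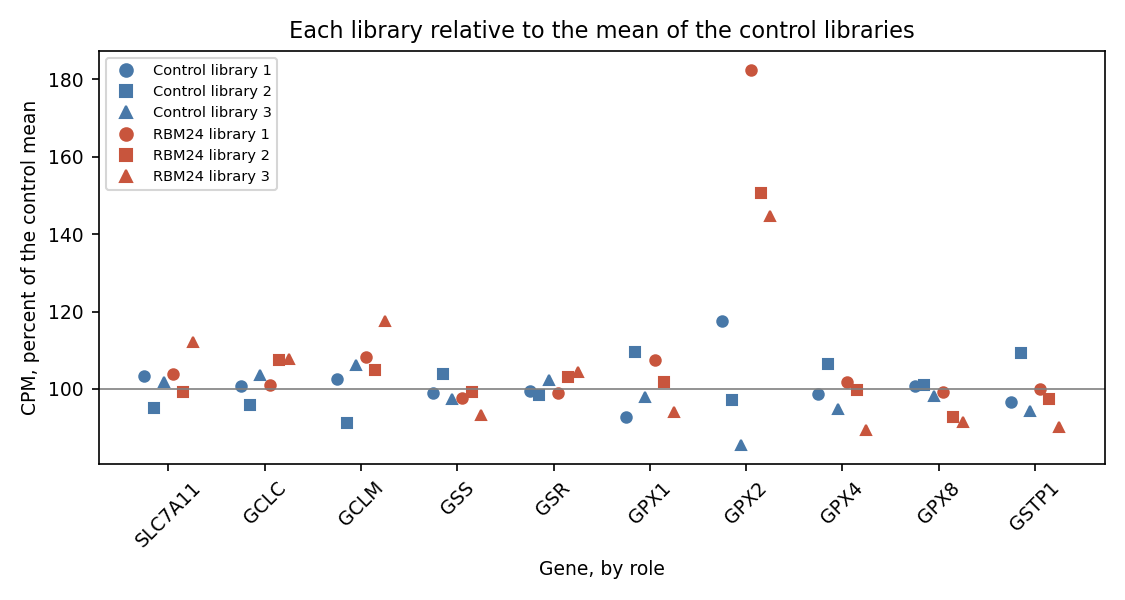
CPM of each library as a percentage of the mean of the 3 control libraries, for the 10 genes in order of role. GPX2 is the 1 gene whose RBM24 points (red) all lie above its control points (blue), and for SLC7A11, GCLC, GCLM and GSR control library 2 (blue square) is lowest.

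The genes whose profile over the 6 libraries was most like that of GPX2, among 10735 other protein-coding genes (mean log2 CPM 2 or more), were HMOX1 (root mean square difference 0.134 in centred log2 CPM), AKR1C3 (0.142) and CDKN2D (0.151). HMOX1, the inducible heme oxygenase, and AKR1C3, an aldo-keto reductase, are both known NRF2 targets, and CDKN2D encodes an inhibitor of CDK4 and CDK6. HMOX1 stood at 10.5, 10.1 and 9.85 CPM in the control and 17.9, 17.3 and 16.5 CPM in the RBM24 libraries, so that the groups were far apart and within each the values ran close together. AKR1C3 stood at 4.14, 3.98 and 3.73 CPM and at 5.84, 5.79 and 5.56 CPM in the same order. The centred log2 CPM of GPX2 had a standard deviation of 0.41 over the 6 libraries, the difference between groups included. That difference enters the ranking too, which favours genes with a log2 fold change near that of GPX2 (0.68). It was 0.77 for HMOX1, 0.72 for CDKN2D and 0.54 for AKR1C3. HMOX1 and AKR1C3 were known to rise from earlier results of these data. A shared regulator was not tested.

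Around these 10 genes, 126 others of the wider glutathione, thioredoxin, selenoprotein, NADPH and NRF2 network were listed. Of these, 122 were in the table and 112 were tested. An unadjusted p under 0.05 was found for 20 of the 112, and for 13.0% of all tested genes. By edgeR 5 were called higher, 0 lower and 107 not called. All 5 belong to the 7 listed NRF2 targets outside glutathione metabolism, which were known from earlier results of these data and so add no independent evidence of direction. AKR1C1 (log2 fold change 1.70), AKR1C2 (1.37), HMOX1 (0.77), AKR1C3 (0.54) and the quinone reductase NQO1 (0.25) rose, with edgeR adjusted p from 3.58e-09 to 0.0159, and AKR1B10 (0.84, adjusted p = 0.232) and OSGIN1 (0.20, adjusted p = 0.40) were not called. The AKR1C genes are close paralogs, so the split of their reads is uncertain. The call of NQO1 was lost without RBM24 library 1 or 2. On log2(FPKM + 1) with no filter, limma did not call NQO1, AKR1C2 or AKR1C3 (adjusted p = 0.115, 0.130 and 0.132).

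None of the 105 tested genes in the other 11 lists passed in edgeR, and their median log2 fold change was -0.03. An unadjusted p under 0.05 was found for 14 of the 105, and for 13.0% of all tested genes. DESeq2 called 4 of the 105, SQSTM1 and SLC1A5 higher and GSTZ1 and GCH1 lower. Of all 17887 tested genes DESeq2 called 361, against 275 by edgeR. Of 12 other glutathione transferases, which share the work of GSTP1, 8 had negative values, with GSTZ1 at -0.26 (edgeR adjusted p = 0.0927, but 0.0373 by DESeq2 and 0.0161 without control library 3) and GSTM3 at -0.30 (adjusted p = 0.272). The GSTM genes are close paralogs, so their reads are uncertain as well. Among 8 genes of glutathione breakdown, the dipeptidase CNDP2 had -0.13 (adjusted p = 0.201), and among 8 transporters the efflux pump ABCC3 had 0.11 (adjusted p = 0.441). In the supply of precursors, the glutamine transporter SLC1A5 had 0.18 (edgeR adjusted p = 0.114, but 0.0376 by DESeq2) and the homocysteine-forming AHCY -0.11 (adjusted p = 0.40).

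Other systems of peroxide removal and their supply were not called by edgeR. Of 15 thioredoxin and peroxiredoxin genes, mitochondrial PRDX3 had -0.13 (edgeR adjusted p = 0.285) and PRDX4 of the endoplasmic reticulum -0.12 (adjusted p = 0.363). Among 8 glutaredoxin and glyoxalase genes, GLO1 had -0.13 (adjusted p = 0.297). The 8 genes that build selenoproteins lay between -0.10 and 0.10, and SECISBP2, which recruits the selenocysteine machinery to the messenger, had -0.06 (adjusted p = 0.677). Of 12 other selenoproteins, SELENOF had -0.11 (adjusted p = 0.378). The 8 NADPH genes lay between -0.07 and 0.05, with malic enzyme ME1 at -0.05 (edgeR adjusted p = 0.708). In the ferroptosis list of 8, GCH1, which makes the antioxidant cofactor tetrahydrobiopterin, had -0.28 (edgeR adjusted p = 0.0771, but 0.0205 by DESeq2 and 0.0261 without control library 3), and NCOA4, the receptor for ferritin breakdown, had -0.13 (adjusted p = 0.296). GPX3 and GPX7, the other peroxidases in the table, were below the filter, at 0.0083 and 0.0017 FPKM on average.

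None of the 8 listed regulators of NRF2 passed in edgeR (3 had an unadjusted p under 0.05, as did 13.0% of all tested genes). NFE2L2, which encodes NRF2, had a log2 fold change of -0.07 (edgeR adjusted p = 0.589) and KEAP1, which targets it for destruction, 0.03 (adjusted p = 0.859). The repressor BACH1 had -0.18 (adjusted p = 0.276), the small MAF gene MAFF -0.19 (adjusted p = 0.152) and SQSTM1, an autophagy receptor that sequesters KEAP1, 0.20 (adjusted p = 0.106). SQSTM1 was called higher in 4 of the 17 alternatives, DESeq2 (adjusted p = 0.0106) and the fit without control library 2 (adjusted p = 0.0416) among them, and MAFF was called lower in 2, without control library 3 (adjusted p = 0.0236) and with no filter. SQSTM1 values did not overlap, at 1169 to 1190 CPM with RBM24 against 983 to 1096 CPM without. The same held for 18.1% of all tested genes, and for 15.2% of the 105 genes of the 11 lists (3 higher, 13 lower).

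**Figure D5:**
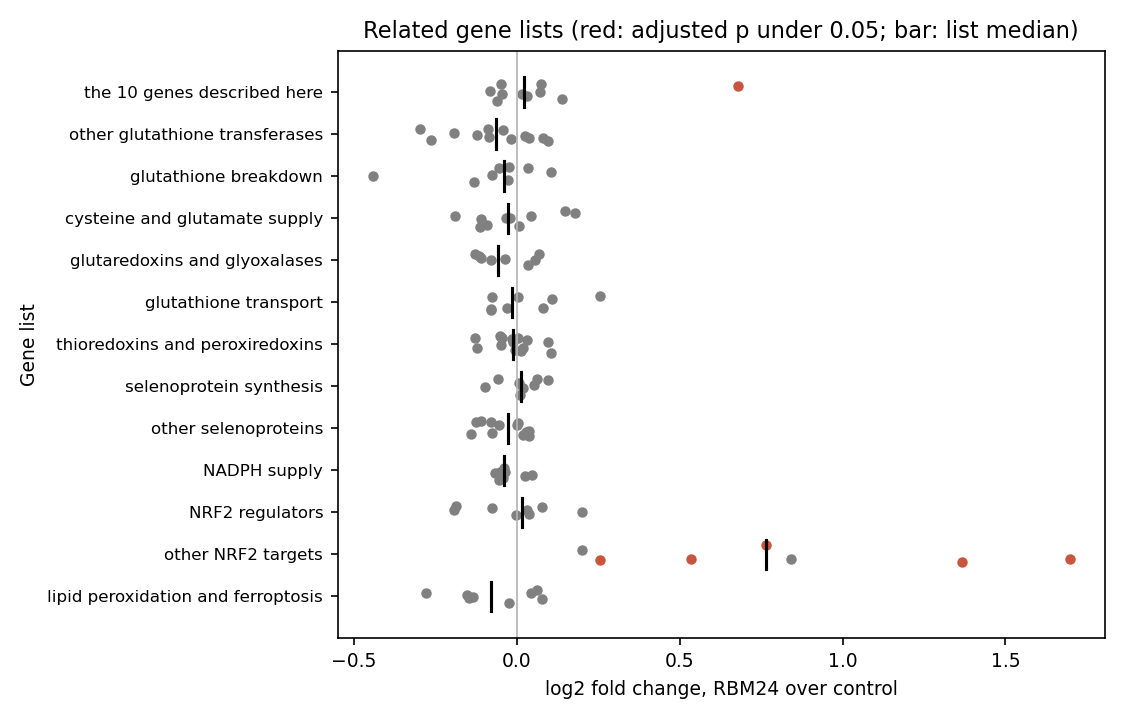
Log2 fold changes, RBM24 over control, of the 10 genes and the tested genes of 12 related lists (red: adjusted p under 0.05, bar: list median). The red points are GPX2 and the 5 NRF2 targets AKR1C1, AKR1C2, AKR1C3, HMOX1 and NQO1, and the medians of the other lists lie between -0.08 and 0.02.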

How the data were processed

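Reads were aligned to GRCh38 with HISAT2, per the submitters' processing notes; no source used here gives the version, counter, annotation release or strand setting. The deposited counts are whole numbers per gene as the authors made them. The deposited FPKM values were divided by gene length and a library total by the authors and rounded. The NC columns were matched to the control plasmid samples and the OE_RBM24 columns to RBM24 overexpression, by number.

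Counts were analysed with edgeR 4.0.16 in R 4.3.3: filterByExpr, TMM factors (0.976 to 1.02), a quasi-likelihood F test on group, and Benjamini-Hochberg adjustment over 17887 genes, called at an adjusted p under 0.05. Intervals of 95% come from the F statistic and its moderated degrees of freedom. The pipeline was tested on simulated counts. No library was a copy of another (chi-square per gene at least 4.52). Coordinates are from GENCODE 29 on GRCh38, whose release need not be the authors'; it types GPX1 as a polymorphic pseudogene where the authors' table has protein-coding. Promoter windows are RefSeq's. Intervals and counting errors cover only what they name.

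Alternatives were DESeq2 size factors, upper-quartile factors, total counts, no filter, a minimum of 50 for the mean count, the DESeq2 1.42.0 Wald test, voom weights, limma 3.58.1 with a mean trend on log2(FPKM + 1) and log2(FPKM + 0.1), a replicate block, and each library left out. Named genes are RBM24, the 10 genes, SLC3A2, NFE2L2, KEAP1, BACH1, in each list every called gene or else the 1 or 2 with the smallest p, and the 3 nearest profiles of the called gene (mean log2 CPM of at least 2); AKR1B10, OSGIN1, CHURC1, CHURC1-FNTB, GPX3 and GPX7 were named after their values were seen. The genes and lists were chosen with earlier results of these data known. Splicing and bound RNA were not analysed here.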

Additional observations from a re-analysis of the deposited data

How the results depend on the processing

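Of 170 values of the 10 genes under 17 alternatives, 157 kept their direction and their side of the threshold, 7 (all GPX2) lost the call and 6 changed sign, with none gaining a call. No alternative called any of the 10 lower. The number called higher was 0 with each of the 3 fits on FPKM and 0 to 1 when single libraries were left out. With single libraries left out, the log2 fold change ranged from -0.0371 to 0.0840 for GPX1, from -0.0822 to 0.0102 for GPX4 and from -0.10 to 0.00734 for GSTP1, so that these have no stable sign, and from 0.57 to 0.81 for GPX2. It ranged from 0.02 to 0.11 for SLC7A11 (lowest without RBM24 library 3), from 0.05 to 0.11 for GCLC, from 0.08 to 0.19 for GCLM, from -0.07 to -0.02 for GSS, from 0.01 to 0.05 for GSR and from -0.12 to -0.06 for GPX8. Related genes called higher numbered 2 (against 5) with log2(FPKM + 1) and no filter, 7 with total counts, 7 by DESeq2, 6 with no filter on low counts, and 4 to 6 with libraries left out. Those called lower numbered 3 with no filter on low counts, 2 by DESeq2, 1 with the replicate block and 0 to 3 with libraries left out, against 0. Of all genes, 275 were called, against 646 with no filter, 50 on log2(FPKM + 1), 62 on log2(FPKM + 0.1), 19 on log2(FPKM + 1) without filter and 90 to 328 with libraries left out; the cause was not tested. Total-count scaling put 67.8% of these calls higher, against 55.6%, and 92.0% were higher on log2(FPKM + 1), but 47.2% with no filter on low counts, 39.6% without control library 3 and 44.0% without RBM24 library 3. The labels do not say whether same-numbered libraries were paired. Their deviations correlated at 0.0072, 0.0555 and -0.0004 (-0.00039), and no library correlated best with its own number. With 3 libraries per group these values cannot settle the question. With the replicate block the count of all calls was 293 and GPX2 kept its call (log2 fold change 0.68, adjusted p = 0.0132). For GPX2, with 96 to 232 counts per library, counting error is a part of the spread within groups. The part of depth in its lost calls was not tested.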
